A study of Mus musculus with 6 samples.

Results

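The table of miRNAs counted in small extracellular vesicles (sEV) of the mouse cochlea held 141 miRNAs that were predicted from the reads and had no miRBase name, out of 810 miRNAs in all. They were taken by their deposited identifier, which marks a predicted miRNA and gives it a serial number and an arm, and are called here by that number and arm (205-5p). The sEV came from the medium of cochlear sensory epithelium explants of ICR mice at postnatal day 3, kept in serum depleted of sEV for 48 h with 50 µM cisplatin (Cis-sEV, 3 libraries) or with PBS (Ctrl-sEV, 3 libraries), and the sEV of about 80 explants were pooled for each library. No allele or transgene is named for either group, and the explants hold many cell types, so the cell of origin of a vesicle is unknown, and fewer vesicles of a cell type cannot be told apart from fewer copies in each vesicle. The miRNAs of hair cells, the mmu-miR-183 cluster, were present, with a summed level, in CPM (reads of a miRNA divided by all miRNA reads of the library and multiplied by 1000000), of 59073 to 81525 CPM with cisplatin and 54984 to 55757 CPM with PBS.

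A miRNA is cut from a longer RNA that folds back on itself as a hairpin. Drosha frees the hairpin in the nucleus, Dicer removes its loop in the cytoplasm, and 1 or both arms remain as mature strands, named 5p and 3p after their side of the hairpin. The mature strand pairs with messenger RNAs through its seed, bases 2 to 8. Prediction programs look for reads that stack on 1 arm of a possible hairpin, and fragments of other structured RNAs, such as small nucleolar RNAs (snoRNAs) and transfer RNAs, can meet the same criteria. The snoRNAs guide the processing and modification of ribosomal RNA and often lie in introns of host genes.

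The sequences below carry the main results, with the seed in capitals. The first set was called higher in Cis-sEV, or, for 208-3p, lay next to the limit of the call.
220-5p: uGCUAUGAugaaggcuauguuggua
389-3p: gCCGAAAGcaugggaacagcc
68-3p: uCCCUGAGacccuuuaac
474-5p: cCUGUCUGugccugcuguac
146-5p: uUGCUGGGgugugcauggugu
121-3p: uAACGUGUgaguguguguuuu
208-3p: uCCCUCAGacccuaacuuu
The second set was called lower in Cis-sEV, and 402-5p belongs to it by name only.
205-5p: gGAGGGAAcgcagucugagugga
450-5p: aUCUCGCUggggccucca
214-3p: cACACACAcacacacacacaca
The third set lies on the strand opposite to known miRNAs and was not called.
474-3p: cACAGCAAguguagacaggca
125-5p: gCAUUCACcgcgugccuua

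Predicted miRNAs took 0.483 to 0.513% of the miRNA reads after cisplatin and 0.959, 1.65 and 2.33% after PBS. The mean share in Cis-sEV was 0.496 ± 0.0155%, and that in Ctrl-sEV was 1.65 ± 0.686% (SD, n = 3 each), and the groups did not overlap. The 95% Wilson intervals of single libraries spanned at most 2.29 to 2.37%, in Ctrl-sEV 3, and cover counting error only, as do the limits given for 0 reads. One sequence, 205-5p, held 47.3 to 56.8% of the predicted reads in Cis-sEV and 60.8, 80.8 and 88.0% in Ctrl-sEV. Without it the shares were 0.212 to 0.271% in Cis-sEV and 0.280, 0.318 and 0.376% in Ctrl-sEV, so the groups still did not overlap but stood much closer. The depth was 1722359 to 1794175 miRNA reads for Cis-sEV libraries and 528952 to 718597 for those of Ctrl-sEV, and 3 reads, the limit that a count of 0 allows, equal up to 1.74 CPM and up to 5.67 CPM.

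**Figure D1:**
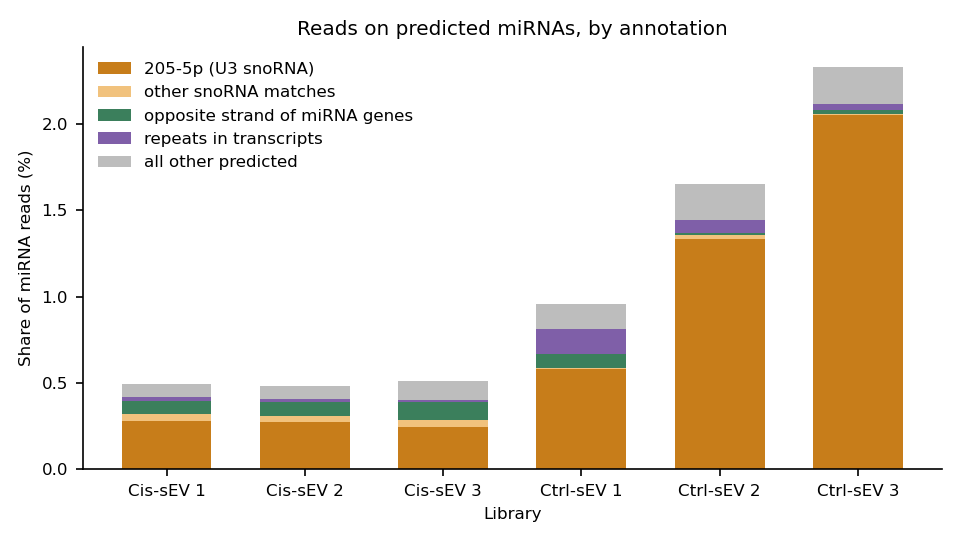
Share of the miRNA reads (percent, vertical axis) on predicted miRNAs in each of the 6 libraries (horizontal axis), stacked by what the sequence matched in the annotation. The Cis-sEV bars end between 0.483 and 0.513%, the Ctrl-sEV bars end at 0.959, 1.65 and 2.33%, and 205-5p makes up most of the Ctrl-sEV bars.

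The predicted miRNAs were shorter and richer in G and C than miRNAs with a name. Their median length was 21 nt (range 18 to 25), and 35 of the 141, or 24.8%, had 18 nt, the lower end of the 18 to 30 nt that were cut from the gel. Among named miRNAs with a number under 1000 (let-7 included), 0 of 484 had 18 nt, and among those with a number of 1000 and above, 2 of 184. Only 51.1% of the predicted miRNAs had 21 to 23 nt, the range typical of Dicer products, against 91.1% and 77.7% of these named groups. Their median GC content was 57.1%, against 45.5% and 54.5%, and 5 of them (24-5p, 78-5p, 105-5p, 183-5p and 279-3p) consist of G and C alone. A G opened 23.4% of the predicted sequences, against 8.68% and 7.61%, while a U opened 40.4%, against 39.5% and 52.7%. The longest was 220-5p with 25 nt.

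**Figure D2:**
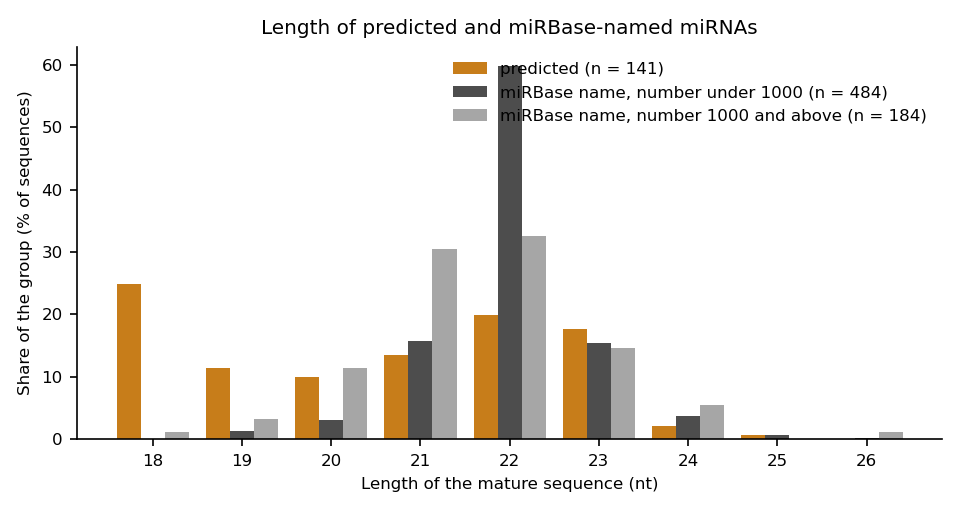
Length of the mature sequence (nt, horizontal axis) against the share of each group (percent, vertical axis) for 141 predicted miRNAs, 484 named miRNAs with a number under 1000 and 184 with a number of 1000 and above. The predicted miRNAs have 1 mode at 18 nt, with 24.8%, and another at 22 nt, with 19.9%, where the named miRNAs have 59.9% and 32.6%.

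The deposited precursors of the predicted miRNAs were short, with a median of 59 bases (range 36 to 103), against 84 and 70 bases in the named groups. All 74 of the 5p sequences started their precursor and all 67 of the 3p sequences ended theirs, which held for 85 of the named miRNAs. Folded with RNAfold, 126 of the 141 precursors (89.4%) gave 1 hairpin with at least 60% of the mature bases paired on 1 arm. In the named groups it was 94.2% and 93.5%. Prediction programs look for hairpins, so a high share says little of the predicted miRNAs. Most named precursors run on past the mature sequence, so precursor lengths and total energies are not compared like with like. Their median free energy was -22.4 kcal/mol, against -36.5 and -28.4 kcal/mol, and per base it was -0.388, -0.433 and -0.400 kcal/mol. A median of 72.2% of the mature bases was paired, against 85.7% and 78.3%.

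Both arms were counted for 8 of the 133 serial numbers (78, 105, 156, 327, 328, 355, 397 and 474), and for the others a single arm. The arms of 474 shared 3 libraries, those of 327 shared 4, those of 328 shared 2, those of 78, 156 and 397 shared 1, and those of 105 and 355 were never seen in the same library. For 105, the 5p arm had 30 reads in Ctrl-sEV 2 and none elsewhere, and the 3p arm had 18 and 11 reads in Cis-sEV 1 and 3. For 397, each arm had 4 reads in Cis-sEV 2 and none elsewhere, and for 355 the 5p arm had 11 and 12 reads in Cis-sEV 1 and 3 while the 3p arm had 10 in Cis-sEV 2. Hence 474 was the only pair with more than 100 reads on 1 arm in every Cis-sEV library and with the other arm in each of them.

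Most predicted miRNAs had few reads in few libraries. Of the 141, 54 (38.3%) had reads in 1 library only and 15 (10.6%) in all 6, and the median was 18 reads over the 6 libraries. Named miRNAs with a number of 1000 and above were like them, with 53.3% in 1 library, 3.26% in all 6 and a median of 13 reads, while those with a number under 1000 had 15.3%, 31.8% and 200 reads. At least 1 read was found for 83, 92 and 86 predicted miRNAs in the libraries of Cis-sEV and for 29, 39 and 39 in those of Ctrl-sEV. With each library reduced to 528952 reads, the expected numbers were 69.8, 81.0 and 72.9 in Cis-sEV and 28.9, 37.5 and 39.0 in Ctrl-sEV, so the ranges stayed apart at equal depth. Named miRNAs did the same, with 72.0 to 72.8% of them expected in a Cis-sEV library and 33.0 to 40.7% in a Ctrl-sEV library at that depth. Over a group, 135 were found in Cis-sEV and 58 in Ctrl-sEV. Reads in Cis-sEV alone were found for 83 (58.9%), between the 36.9% of named miRNAs with a number under 1000 and the 80.4% of those with a number of 1000 and above.

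Reads in Ctrl-sEV alone were found for 6 predicted miRNAs (4.26%), each in 1 library, and for 4 (0.825%) and 1 (0.543%) of the named groups. 173-3p had 51 reads and 105-5p had 30 reads in Ctrl-sEV 2, 315-3p had 43 and 185-3p had 21 reads in Ctrl-sEV 3, and 138-5p and 228-5p had 1 read each. The sequence of 173-3p ends the annotated miRNA model Gm23873 on chromosome 7 of GRCm38, with its precursor at chr7:61750468-61750528 on the minus strand. The sequences of 315-3p and 185-3p matched no annotated transcript. The pair with the most reads is printed here, since each of these rests on a single library.
173-3p: uGAUAUAGccaagcccgacugu
315-3p: cCCAGCCGucgccucgccucgu

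The mature sequences were searched as exact matches in the transcripts of GENCODE release M21 (GRCm38), on both strands. Of the 141, 74 (52.5%) matched none, and they can lie in introns, between genes or in RNAs that this annotation lacks. The others fell into 22 in exons of protein-coding genes, 14 found in 50 or more genes as repeats, 10 in snoRNAs, 5 in annotated miRNA genes and 5 on the strand opposite to such genes, 6 opposite to other exons, 3 in miRNA models without a miRBase name and 2 in exons of other genes. The 10 snoRNA matches carried 56.0 to 64.5% of the predicted reads of Cis-sEV libraries and 61.0 to 88.2% of those of Ctrl-sEV. The 5 opposite to miRNA genes carried 16.1 to 19.2% in Cis-sEV and 8.42, 0.784 and 1.09% in Ctrl-sEV. Most of this was 474-3p, which alone carried 14.8 to 18.4% in Cis-sEV and 7.17, 0.463 and 0.592% in Ctrl-sEV. The 22 in exons of protein-coding genes carried at most 2.87% of the predicted reads of any library.

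For differential expression, edgeR tested 353 miRNAs with enough reads in enough libraries, 27 of them predicted. The 114 predicted miRNAs left out had a median of 12 reads over all libraries, and those that entered with reads mainly in 1 group had to differ, so their counts say nothing of predicted miRNAs in general. With the limits set at 0.05 for the adjusted p and at 1 for the size of the log2 fold change, 6 of the 27 were called higher in Cis-sEV (22.2%) and 4 lower (14.8%). Each predicted miRNA called higher had at most 1 read over Ctrl-sEV, so it entered through Cis-sEV alone and could not be called lower. Over all 353 tested, 23.5% were called higher and 6.52% lower. After TMM scaling, every Cis-sEV library lay above every Ctrl-sEV library for 7 of the 27, against 37.7% of all tested, and below for 6, against 12.5%. The median log2 fold change was -1.01 over the 27 and 0.44 over the 353. The study calls the libraries biological replicates without saying how litters or cultures were divided among them, and the p-values measure the spread between these libraries.

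**Figure D3:**
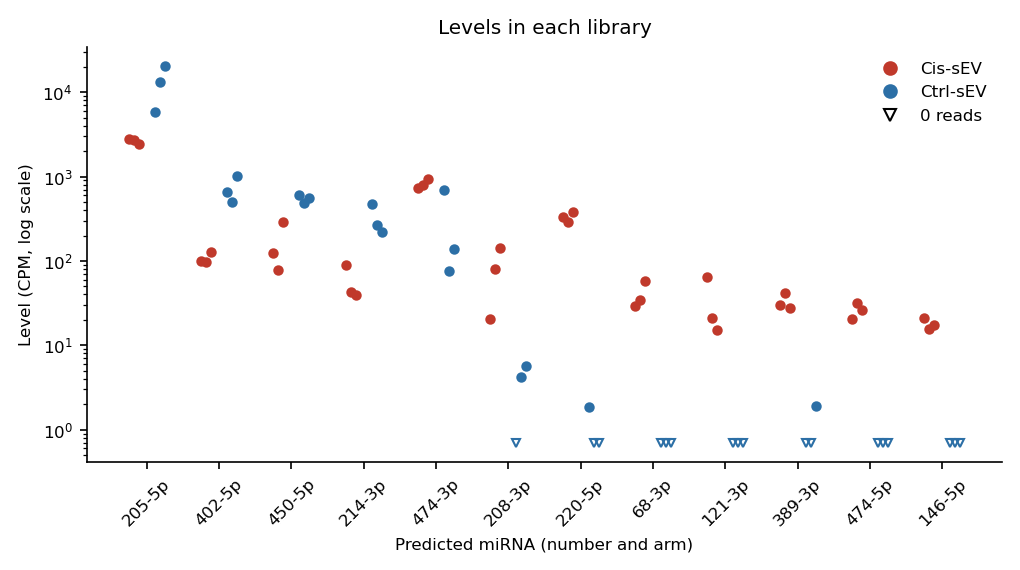
Level (CPM, log axis) of the 10 predicted miRNAs called by edgeR and of 474-3p and 208-3p, 1 point for each library, with open triangles for 0 reads. The Cis-sEV points lie below all Ctrl-sEV points for 205-5p, 402-5p, 450-5p and 214-3p and above them for the remaining 8, narrowly so for 474-3p, whose groups overlap once TMM scaling is applied.

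The most abundant predicted miRNA of both groups, 205-5p, is the last 23 bases of the U3 snoRNA. U3 is a box C/D snoRNA needed for the first cuts of the ribosomal RNA precursor. The sequence is bases 193 to 215 of 215 in Rnu3b1, Rnu3b2, Rnu3b3 and Rnu3b4, all on the plus strand of chromosome 11 of GRCm38, for example chr11:87443429-87443451 in Rnu3b1, and was found in 6 named genes in all, each of them a snoRNA. Its deposited precursor, shown with the mature part in capitals, runs on past the end of U3 into the flanking DNA.
precursor 205: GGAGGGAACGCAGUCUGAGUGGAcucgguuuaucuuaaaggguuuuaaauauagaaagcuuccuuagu

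In reads, 205-5p had 5010, 4668 and 4359 with cisplatin and 3148, 9585 and 10849 with PBS. In CPM these were 2797, 2710 and 2430 against 5832, 13338 and 20510, so the 3 Cis-sEV libraries were alike, the Ctrl-sEV libraries spread widely, and the groups did not overlap. The log2 fold change was -2.62 ± 0.38 (SE, edgeR, adjusted p = 0.0053). It ranked 17 by mean CPM among all 810 miRNAs in Ctrl-sEV and 53 in Cis-sEV.

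A pair of other predicted miRNAs differ from 205-5p by 1 base each, and each is the last 23 bases of another gene annotated as a snoRNA, of 214 and 191 bases. Counted from the 5′ end, with the base of 205-5p first, 106-3p carries C9U and 479-3p carries G10A. The first lies in Gm22865 at chr2:121004280-121004302 on the plus strand and the second in Gm25419 at chr4:55299655-55299677 on the minus strand.
106-3p: gGAGGGAAugcagucugagugga
479-3p: gGAGGGAAcacagucugagugga
For each 1000 reads of 205-5p, 106-3p had 0.798, 0.643 and 1.15 reads in Cis-sEV and 1.27, 0.522 and 1.29 in Ctrl-sEV. For 479-3p these values were 1.60, 1.71 and 1.61 in Cis-sEV and 1.27, 1.98 and 1.29 in Ctrl-sEV. These ratios rest on few reads. 106-3p had 4, 3 and 5 reads in Cis-sEV and 4, 5 and 14 in Ctrl-sEV. 479-3p had 8, 8 and 7 reads in Cis-sEV and 4, 19 and 14 in Ctrl-sEV. The ratios of both overlapped between the groups, although the level of 205-5p did not. At such counts an overlap says little, and edgeR tested neither. Which gene gave these reads was not tested.

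Among the other snoRNA matches, 220-5p and 389-3p moved the other way. The sequence of 220-5p is bases 8 to 32 of 80 in the snoRNA Gm26224, which lies in Gas5, a noncoding gene that hosts a row of box C/D snoRNAs and is known for its response to growth arrest. Its precursor lies at chr1:161035401-161035471 on the plus strand, within an exon of a Gas5 transcript. It had 597, 504 and 685 reads in Cis-sEV and 1, 0 and 0 in Ctrl-sEV. The ratio of scaled reads was 480 (95% Clopper-Pearson interval 86.0 to 18964, for counting error only), and edgeR called it higher (adjusted p = 0.0057). Its control read came from Ctrl-sEV 1, without which it was at least 119-fold higher. By mean CPM it was the third predicted miRNA of Cis-sEV.

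The sequence of 389-3p is bases 110 to 130 of 130 in Snora65, a box H/ACA snoRNA within the ribosomal protein gene Rpl12 (precursor at chr2:32963349-32963420, plus strand). It had 54, 71 and 50 reads in Cis-sEV and 0, 0 and 1 in Ctrl-sEV, so each Cis-sEV library stood far above the single Ctrl-sEV read. The ratio was 47.0 (interval 8.33 to 1868, for counting error only), and edgeR called it higher (adjusted p = 0.016). Without Ctrl-sEV 3, 389-3p was at least 11.0-fold higher. Its call was lost with limma-voom (adjusted p = 0.32) and in edgeR without a filter or with a replicate block (adjusted p = 0.072 and 0.19). The remaining snoRNA members, 164-5p, 178-3p, 156-3p and 44-5p, had reads in Cis-sEV alone, at most 10 in a library, and 156-5p had 8, 0 and 31 reads in Cis-sEV against 0, 126 and 0 in Ctrl-sEV. None of these 5 had enough reads in enough libraries to be tested.

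Number 474 lies on the strand opposite to Mir214. Mir214 and Mir199a-2 are both within Dnm3os, a noncoding RNA transcribed from the strand opposite to Dnm3. The second strand of the Mir214 locus, on which 474 lies, is known to give miR-3120. No row of the table carries that name, and whether 474 is miR-3120 was not tested. The precursor of 474 lies at chr1:162223397-162223455 on the minus strand of GRCm38, inside the RefSeq hairpin Mir214 at chr1:162223368-162223477 on the plus strand. The precursor and the hairpin are shown, with the mature arms in capitals, to make the overlap visible.
precursor 474: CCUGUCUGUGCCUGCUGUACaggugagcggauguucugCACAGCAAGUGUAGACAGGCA
Mir214 hairpin: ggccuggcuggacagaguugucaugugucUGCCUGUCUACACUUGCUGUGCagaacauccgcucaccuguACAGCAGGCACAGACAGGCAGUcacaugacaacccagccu
All 21 bases of 474-3p are complementary to mmu-miR-214-5p, and 18 of the 20 bases of 474-5p overlap mmu-miR-214-3p as its complement.

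The reads of both strands were counted in the same libraries. 474-3p had 1301, 1376 and 1694 reads in Cis-sEV and 371, 55 and 73 in Ctrl-sEV. The opposite mmu-miR-214-5p had 597, 869 and 790 reads in Cis-sEV and 144, 70 and 136 in Ctrl-sEV. Thus 474-3p had 1.58 to 2.18 reads for each read of mmu-miR-214-5p in Cis-sEV, and 2.58, 0.786 and 0.537 in Ctrl-sEV, where Ctrl-sEV 1 stood apart.

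The level of 474-3p in Cis-sEV was 823 ± 111 CPM, and that in Ctrl-sEV 301 ± 336 CPM (SD, n = 3 each). In CPM the groups were narrowly apart, with the lowest Cis-sEV library at 726 and the highest Ctrl-sEV library at 687, and after TMM scaling they overlapped. It was not called, with a log2 fold change of 0.95 ± 0.87 (SE, edgeR, adjusted p = 0.53). Without Ctrl-sEV 1 the log2 fold change was 2.59 with an adjusted p of 0.026 in edgeR, so this 1 library decided the call. mmu-miR-214-5p was not called either, at 0.64 ± 0.60 (SE, edgeR, adjusted p = 0.54).

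The other arm, 474-5p, had 37, 55 and 47 reads in Cis-sEV and 0 in each Ctrl-sEV library. It was at least 12.4-fold higher in Cis-sEV, set against 3 reads in Ctrl-sEV, the limit for a group without reads (edgeR, adjusted p = 0.0055). mmu-miR-214-3p on the other strand had 640, 573 and 654 reads in Cis-sEV and 0, 141 and 214 in Ctrl-sEV. In Cis-sEV, 474-5p thus had 0.0578 to 0.0960 reads for each of its opposite arm, while 474-3p exceeded its own.

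**Figure D4:**
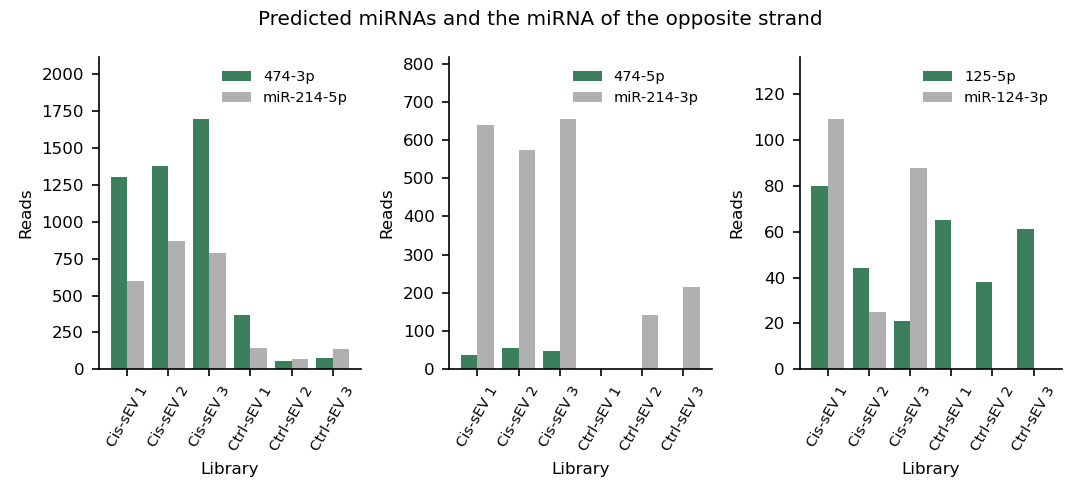
Reads (vertical axis, starting at 0) of 3 predicted miRNAs and of the named miRNA on the opposite strand in each of the 6 libraries. 474-3p exceeds miR-214-5p in all 3 Cis-sEV libraries, 474-5p stays below miR-214-3p there, and 125-5p has 38 to 65 reads in the Ctrl-sEV libraries where miR-124-3p has 0.

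A further member of this kind, 125-5p, is the complement of 19 bases of mmu-miR-124-3p, a miRNA of neurons that comes from 3 genes, Mir124a-1, Mir124a-2 and Mir124a-3, on chromosomes 14, 3 and 2. It had 80, 44 and 21 reads in Cis-sEV and 65, 38 and 61 in Ctrl-sEV. mmu-miR-124-3p had 109, 25 and 88 reads in Cis-sEV and 0 in each Ctrl-sEV library, and edgeR called it higher (adjusted p = 0.014). The level of 125-5p in Cis-sEV was 27.3 ± 16.5 CPM, and in Ctrl-sEV it was 96.2 ± 37.6 CPM (SD, n = 3 each), with no overlap, and it was not called (log2 fold change -2.19 ± 1.18, edgeR, adjusted p = 0.23). The remaining members opposite to miRNA genes had few reads in Cis-sEV alone, with 5, 1 and 0 for 359-5p, opposite to Mir335, and 0, 0 and 8 for 337-5p, opposite to Mir5620.

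Many predicted miRNAs resemble named miRNAs, among them abundant ones. Over their whole length and on the same strand, 25 matched a named miRNA of the table with at most 3 differing bases, once simple repeats were set aside. The number with 0, 1, 2 and 3 differences was 4, 4, 16 and 1. Of the 25, 22 had 18 to 20 nt, 24 were shorter than the named miRNA, and 23 began at its first base. Of the 39 differing bases, 20 fell in the last 3 bases of the predicted sequence and 2 in the seed. The chromosome listed for the predicted miRNA was that of the named one in 3 of the 25. Among these is 359-5p, the member opposite to Mir335 described above, which is thus counted in both groups. It also carries a seed difference, A4G against mmu-miR-335-5p.

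All 25 had reads in Cis-sEV, where each had fewer reads over the group than its named relative, and 8 had reads in Ctrl-sEV. In Cis-sEV 3, though, 84-3p had 15 reads against 8 of mmu-miR-29b-1-5p, from which it differs by 2 bases. Its sequence is found without a difference in another miRNA gene, Mir29b-2 on chromosome 1 (bases 11 to 28), so mmu-miR-29b-1-5p need not be its source. The let-7 family, miRNAs that promote differentiation and rise during development, had 8 of these relatives. Those printed are the pair with a single difference, 75-5p and 293-5p, and 274-5p. Of these, 75-5p and 274-5p were tested.
mmu-let-7b-5p: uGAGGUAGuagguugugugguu
75-5p: gGAGGUAGuagguugugu
293-5p: uGAGGUAGuggguugugu
mmu-let-7c-5p: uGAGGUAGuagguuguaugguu
274-5p: uGAGGUAGuaggcuguac
Counted from the 5′ end with the named base first, 75-5p carries U1G and 293-5p carries A10G against mmu-let-7b-5p, and 274-5p carries U13C and U18C against mmu-let-7c-5p.

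75-5p had 64, 80 and 119 reads in Cis-sEV and 0, 13 and 16 in Ctrl-sEV, which was 1.54 and 0.537 reads for each 1000 of mmu-let-7b-5p over each group. 293-5p had 8, 10 and 16 reads in Cis-sEV and 1, 31 and 2 in Ctrl-sEV, and 31 of its 34 Ctrl-sEV reads came from Ctrl-sEV 2. 274-5p had 0, 30 and 31 reads in Cis-sEV and 0, 0 and 6 in Ctrl-sEV. The groups overlapped for 274-5p, and for 75-5p they were apart in CPM but overlapped after TMM scaling. edgeR tested both and called neither (adjusted p = 0.61 and 0.71). By their precursors, 293-5p was placed in an untranslated exon of Elp3 (chr14:65530948-65530994) and 274-5p opposite to a coding exon of Pfkfb1 (chrX:150625207-150625251). Which locus gave the reads was not tested. The let-7 seed itself was held by 9 predicted miRNAs, all of 18 or 19 nt, and 42 of the 141 (29.8%) had the seed of some named miRNA.

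Among the 4 without a difference, 68-3p is the first 18 bases of mmu-miR-125a-5p, and 130-5p is a part of mmu-miR-149-5p.
mmu-miR-125a-5p: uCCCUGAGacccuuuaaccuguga
68-3p: uCCCUGAGacccuuuaac
mmu-miR-149-5p: uCUGGCUCcgugucuucacuccc
130-5p: cUCCGUGUcuucacuccc
68-3p lies in Mir125a (chr17:17830817-17830834), while the deposited precursor of 130-5p lies on chromosome X, opposite to an untranslated exon of Frmpd3 (chrX:140434791-140434832), and its mature sequence is found in Mir149 on chromosome 1 (chr1:92850386-92850403). 68-3p had 53, 60 and 104 reads in Cis-sEV and 0 in each Ctrl-sEV library, and was at least 19.4-fold higher in Cis-sEV (edgeR, adjusted p = 0.0094). mmu-miR-125a-5p had 1098, 1085 and 1220 reads in Cis-sEV and 382, 1759 and 1038 in Ctrl-sEV, and edgeR called it lower (log2 fold change -1.70 ± 0.38, SE, adjusted p = 0.014). The short form and the named miRNA thus had calls in opposite directions, but 68-3p entered the test through Cis-sEV alone. It could only be called higher, so the pair of calls is no test of whether the forms differ. 130-5p, with 16, 4 and 3 reads in Cis-sEV alone, was not tested.

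208-3p resembles mmu-miR-125b-5p, a miRNA common in neural and sensory tissue, from which it differs by G6C in the seed and by G19U.
mmu-miR-125b-5p: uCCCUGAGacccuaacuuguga
208-3p: uCCCUCAGacccuaacuuu
It had 37, 140 and 258 reads in Cis-sEV and 0, 3 and 3 in Ctrl-sEV, so the groups did not overlap, but the Cis-sEV libraries themselves spread widely. With an adjusted p of 0.081 in edgeR (log2 fold change 4.31 ± 1.61, SE) it lay just outside the limits of the call, and 450-5p and 214-3p, with adjusted p-values of 0.029 and 0.024 in edgeR, lay just inside. For each 1000 reads of mmu-miR-125b-5p, 208-3p had 1.10, 4.75 and 7.21 in Cis-sEV and 0, 0.353 and 0.746 in Ctrl-sEV. Pooled over each group this was 4.40 and 0.405. mmu-miR-125b-5p itself was not called, with a log2 fold change of 0.94 ± 0.26 (SE) below the limit on the fold and an adjusted p of 0.030 in edgeR.

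The remaining calls with 0 reads in Ctrl-sEV were 146-5p and 121-3p, which matched no annotated transcript exactly and no named miRNA over their whole length. 146-5p had 38, 27 and 31 reads in Cis-sEV and was at least 8.60-fold higher than in Ctrl-sEV (edgeR, adjusted p = 0.0052). 121-3p had 116, 36 and 27 reads in Cis-sEV and was at least 16.03-fold higher (edgeR, adjusted p = 0.014), and without Cis-sEV 1 the bound was 8.44-fold. All 4 bounds rest on the depth of the controls: without Ctrl-sEV 2, the deepest, they were 4.78 for 146-5p, 6.92 for 474-5p, 8.91 for 121-3p and 10.8 for 68-3p.

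Simple repeats made up a group of their own. A run of at least 15 bases of a unit of 1 to 3 bases was found in 12 of the 141 predicted miRNAs and in 1 of 668 named ones. The most abundant, 214-3p, consists of CA repeats throughout and matched 1899 genes, so its place in the genome is not known. It had 159, 74 and 70 reads in Cis-sEV and 256, 193 and 116 in Ctrl-sEV, or 56.9 ± 27.7 CPM against 321 ± 135 CPM (SD, n = 3 each). It was called lower (log2 fold change -2.89 ± 0.76, SE, edgeR, adjusted p = 0.024), a call that was lost without any 1 of the Cis-sEV libraries, at adjusted p-values of 0.068 to 0.11 in edgeR. The 14 sequences found in 50 or more genes, this one included, held 794, 547 and 183 reads in Ctrl-sEV and 238 to 331 in Cis-sEV. Several had most reads in 1 Ctrl-sEV library, such as 157-3p with 141 reads and 351-5p with 97 in Ctrl-sEV 2, and 118-5p with 111 in Ctrl-sEV 1.

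Some predicted miRNAs carry letters known from transfer RNAs, which were searched after the values had been seen. The letters UAGCUCAG, common in the D arm of transfer RNAs, were found on the sequenced strand of 5 of the 141 predicted miRNAs (217-5p, 228-5p, 328-5p, 363-5p and 402-5p) and of 0 of 668 named ones. The ending CCUCCA, of which CCA is the end that every mature transfer RNA carries, was found in 3 predicted miRNAs (450-5p, 133-3p and 116-3p) and in 0 named ones. Transfer RNA sequences were not among the sequences searched here, so no gene is given for them.

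402-5p, of 18 nt, had 180, 169 and 230 reads in Cis-sEV and 351, 363 and 532 in Ctrl-sEV, more in each of the shallower control libraries than in any cisplatin library. In CPM this was 109 ± 16.7 against 720 ± 258 (SD, n = 3 each), and the groups did not overlap. It was called lower (log2 fold change -3.09 ± 0.45, SE, edgeR, adjusted p = 0.0053), and was the second predicted miRNA of Ctrl-sEV by mean CPM. It matched no annotated mouse transcript, and whether it comes from mouse cells was not tested, so its sequence is not printed and its call is that of the deposited row only.

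450-5p ends in CCUCCA and matched exons of 2 genes, on the opposite strand only. 133-3p has the same ending and is shown beside it for comparison.
450-5p: aUCUCGCUggggccucca
133-3p: aUCUCGGUggaaccucca
450-5p had 220, 135 and 525 reads in Cis-sEV and 326, 352 and 293 in Ctrl-sEV, or 165 ± 113 CPM against 549 ± 57.2 CPM (SD, n = 3 each). The groups did not overlap in CPM, with the highest Cis-sEV library at 293 CPM and the lowest Ctrl-sEV library at 490 CPM. It was called lower (log2 fold change -2.13 ± 0.59, SE, edgeR, adjusted p = 0.029), but the call was lost without 5 of the 6 libraries in turn, at adjusted p-values of 0.052 to 0.082 in edgeR. It was also lost when scaled to total miRNA reads, at an adjusted p of 0.069 in edgeR. 133-3p had 12, 11 and 1 reads in Cis-sEV and 0, 0 and 2 in Ctrl-sEV. 116-3p had 12, 0 and 8 reads in Cis-sEV and 10, 26 and 15 in Ctrl-sEV, with no overlap in CPM, and lay just outside the limits of the call (log2 fold change -3.18 ± 1.30, SE, edgeR, adjusted p = 0.11).

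Both arms of 328 match Bc1, a small noncoding RNA of neurons that descends from a transfer RNA and acts in dendrites, among 11 genes for 328-5p and 5 for 328-3p, so the source gene is uncertain.
328-5p: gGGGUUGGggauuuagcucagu
328-3p: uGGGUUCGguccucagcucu
328-5p had 126, 96 and 44 reads in Cis-sEV and 0, 63 and 0 in Ctrl-sEV, so all its Ctrl-sEV reads came from 1 library. It was tested and not called (log2 fold change 0.60 ± 2.03, SE, edgeR, adjusted p = 0.88). 328-3p had 31, 0 and 16 reads in Cis-sEV and 0 in Ctrl-sEV.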

How the data were processed

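RNA of 18 to 30 nt from 6 sEV preparations was isolated by gel electrophoresis and sequenced by the authors. They aligned reads to GRCm38.p6 with Bowtie2 (version not given in the sources used here), annotated them against other RNA classes, predicted miRNAs from genomic position, and deposited raw counts, 1 for each mature miRNA and library. The deposited group averages were equal to the mean of the counts within 0.001 and were not used.

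Counts of all 810 miRNAs were tested with edgeR's quasi-likelihood fit, TMM factors (0.761 to 1.18) and filterByExpr (10 reads in a library, 15 over all), with Benjamini-Hochberg adjustment over the 353 tested. How reads shared by similar sequences were assigned is not given in the sources used here. Same-numbered libraries of the groups had deviations from the group means correlated at -0.04, -0.17 and -0.01, so the numbers were not taken as pairs. Libraries of a group differed by more than sampling noise. For members without Ctrl-sEV reads, the fold was bounded from below with 3 reads over the group, and for those with 1 to 3 reads a 95% Clopper-Pearson interval was computed.

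Mature and precursor sequences were compared with GENCODE M21 transcripts and with the RefSeq miRNAs of GRCm38.p6, where the name of 568 named miRNAs was found, each with the same sequence, and no predicted one. Precursors were folded with RNAfold 2.7.2. The fits ran in R 4.3.3 with limma 3.58.1, DESeq2 1.42.0 and edgeR 4.0.16. Python 3.11.15 was used with matplotlib 3.10.9, scipy 1.17.1, pandas 2.3.3 and numpy 2.4.6.

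Members and lists were chosen with earlier results of these data known. The rule for those named one by one was: called in the test, listed in the study's supplement, among the 5 most abundant of a group, counted in Ctrl-sEV alone, both arms counted, shortest (35 at 18 nt, given as a count) or longest, sharing 15 bases in a row with a named miRNA (21, given by example), or nearest to the limits of the call. Other members named in the text, such as those of G and C alone or with reads mainly in 1 library, were chosen after their values were seen. Sequences of some members are not reported here. Marker lists of erythrocytes, neurons and immune cells summed to 1158 to 1337, 1593 to 1677 and 1.67 to 16.3 CPM in Cis-sEV and to 1639 to 3604, 937 to 1376 and 0 to 5.57 CPM in Ctrl-sEV. Only 1 of the 2 listed immune miRNAs was among the miRNAs counted. Of the 2 neuron miRNAs, mmu-miR-124-3p had 0 reads in each Ctrl-sEV library, so the sum there is that of mmu-miR-9-5p alone. Alternatives were other scalings, filters, tools, a replicate block and each library left out.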

Additional observations from a re-analysis of the deposited data

How the results depend on the processing

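Against 6 predicted miRNAs called higher in Cis-sEV and 4 called lower, limma-voom called 2 and 2, DESeq2 8 and 9, no filter 5 and 2, and the fit with a replicate block 1 and 2. The main fit, limma-voom and the block tested 353 miRNAs, DESeq2 485 and no filter 810. Libraries left out in turn gave 6 to 10 higher, with 10 without Ctrl-sEV 1, and 2 to 8 lower, with 2 without Cis-sEV 1 or Cis-sEV 2 and 8 without Ctrl-sEV 1. Without a Cis-sEV library 341 to 344 miRNAs were tested, and without a Ctrl-sEV library 439 to 442. The shares called over all tested miRNAs are not given for these settings. A shift of predicted miRNAs thus cannot be told apart from one of the whole table, and the cause of these shifts was not tested. The other settings stayed within 1.5 times the counts. Of 204 refitted log2 fold changes of 12 named members, none turned its sign, 25 lost the call and 2 gained it, and 205-5p, 402-5p and 220-5p kept their calls in all 17 refits, the replicate block included. The block took the call of the other 7, at adjusted p-values of 0.137 to 0.191. 208-3p was called by DESeq2 (adjusted p = 0.010). The median log2 fold change of all tested miRNAs was 0.44 with TMM, 0.22 with upper-quartile scaling and 0.80 with total miRNA reads.

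The share of reads on predicted miRNAs, 0.496% in Cis-sEV and 1.65% in Ctrl-sEV, was 0.897 and 4.00% when the 10 most abundant miRNAs were taken out of the total, 0.232 and 0.325% without 205-5p, and in Cis-sEV 0.475% without those that share 15 bases with a named miRNA. Predicted miRNAs with reads numbered 46 in Cis-sEV and 19 in Ctrl-sEV when every library had to hold one, and 83 and 38 with at least 10 reads over the group. Depth limits many members: 53 of the 141 had 10 reads or fewer in all.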
